A study of Mus musculus with 6 samples.

Results

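The clustered protocadherin genes of the mouse were examined as a stretch of 1250 kb on chromosome 18 that holds the alpha, beta and gamma clusters with flanks. Its first region of peaks starts at 36914398 and its last ends at 38148331, in mm39. Members were all peaks of CTCF that overlapped this stretch in any of 6 peak lists, chosen by position alone. They numbered 126 of 172581 peaks on chromosomes 1 to 19, X and Y. Merging peaks that overlapped by at least 1 bp across the lists gave 50 regions here, of 94951 in the genome.

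The lists came from CUT&RUN, which tethers a nuclease to a DNA-bound protein through an antibody and sequences the DNA that is cut free around it. The cells were regulatory T cells from the thymus of wild-type mice (WT, 3 libraries) and of mice with a knockout of Cgas (Cgas KO, 3 libraries), the gene of the cytosolic DNA sensor cGAS. The stated purpose was to profile the binding of CTCF in both genotypes. The labels give no strain, age, knockout allele or sorting scheme, and do not say whether replicates came from separate animals, so the spread behind each p-value is that of these samples and may be technical. Peak lists hold no expression values, so the labelled cell type was not checked against markers, and the Cgas locus was not analysed here.

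Clustered protocadherins are cell-surface adhesion proteins, known above all from neurons, where each cell expresses a small set of them that gives it a surface identity. In the alpha and gamma clusters, each of many first exons has a promoter of its own and is spliced to exons shared by the whole cluster, while the beta genes are single-exon genes. CTCF is a zinc-finger protein that, together with the ring-shaped cohesin complex, holds chromatin loops. Most of the variable promoters carry a site for it, and loops between these promoters and distant enhancers take part in promoter choice in neurons. The 5 C-type genes, Pcdhac1, Pcdhac2, Pcdhgc3, Pcdhgc4 and Pcdhgc5, stand at the ends of the alpha and gamma clusters and are used more uniformly from cell to cell.

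RefSeq's gene table of GRCm38.p6, an earlier build, lists 14 alpha, 22 beta and 22 gamma genes in that order along the chromosome. Zmat2 is the protein-coding gene next to Pcdha1, and Diaph1, the gene of an actin-nucleating formin, the one next to the end of the gamma cluster, followed by Hdac3, the gene of a histone deacetylase. In this order Pcdhac1 and Pcdhac2 close the alpha cluster, and Pcdhgc3, Pcdhgc4 and Pcdhgc5 close the gamma cluster. No annotation of mm39 was used here, so no peak was assigned to a gene or to a flank, and peaks are named by position. The alpha cluster lies towards the low and the gamma cluster towards the high coordinates. Where the clusters end and the flanks begin was not determined. Values given below for the protocadherin clusters are those of the whole stretch with its flanks.

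CTCF peaks were unevenly spread across the stretch, clusters and flanks together, in both genotypes. Which of the parts below lie in the clusters and which in the flanks was not determined. A pair of regions at the low end was called in all 6 lists. It was followed by 935.6 kb, chr18:36937614-37873204, in which no region was called in 4 or more lists. Then came a dense run of 12 regions called in 4 or more lists in the last 276.8 kb, up to the high end of the stretch. The limits of these 3 parts were drawn after the peaks had been seen, so their values are given as a description with no test.

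**Figure D1:**
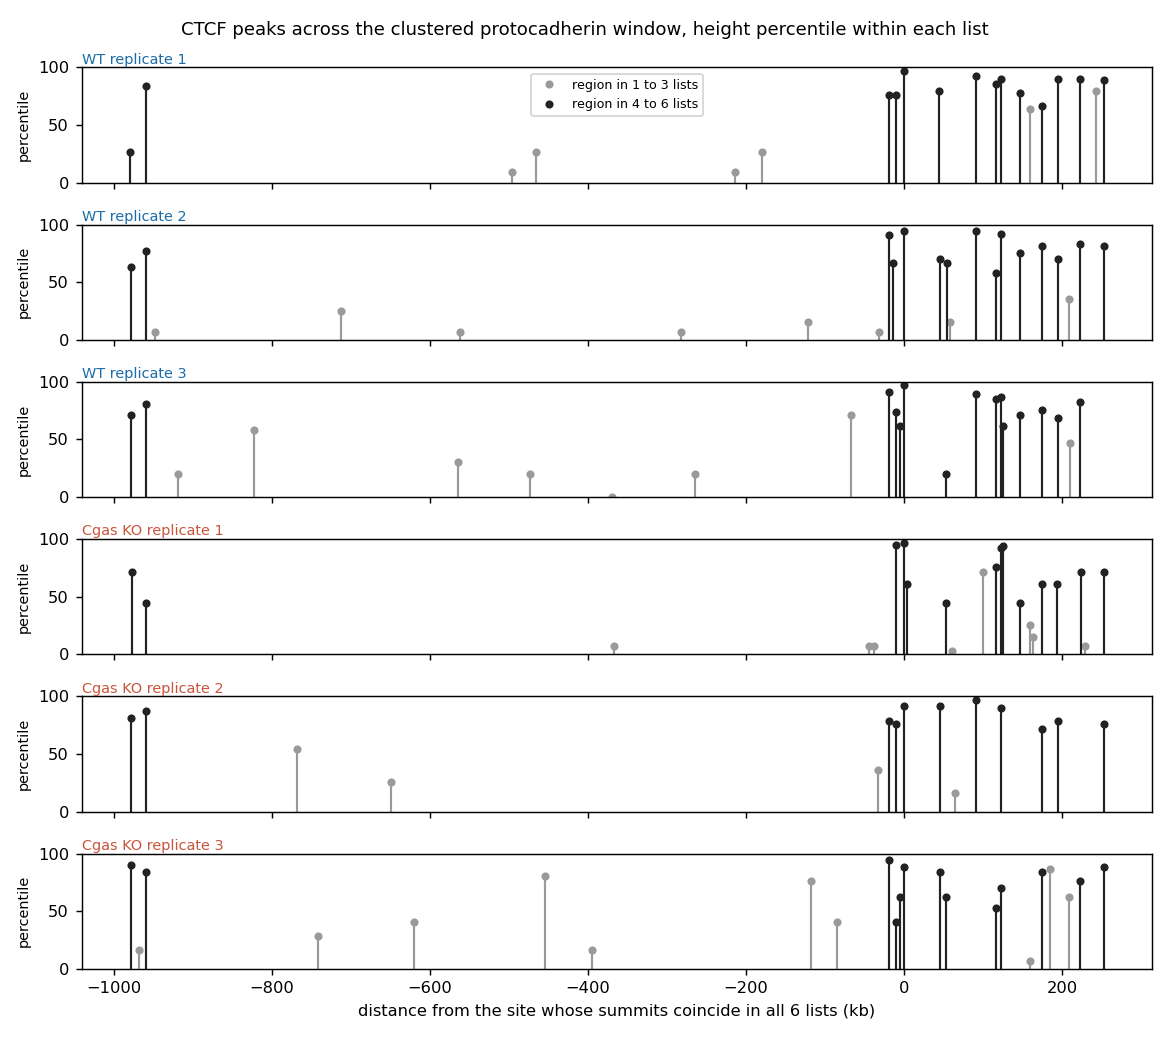
Peaks of each library across the protocadherin clusters and their flanks, by distance in kb from the site whose summits coincided in all 6 lists (x axis) and by the percentile of their height within the list (y axis). Black marks peaks in regions of 4 to 6 lists and grey marks peaks in regions of 1 to 3 lists; black peaks stand at the low end and in the dense run at the high end, and the 935.6 kb between them hold only grey ones.

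In the sparse 935.6 kb, WT replicates 1, 2 and 3 had 4, 6 and 7 peaks and Cgas KO replicates 1, 2 and 3 had 3, 3 and 6. The ranges overlap, and no library was without a peak there. These peaks made up 26 regions, of which 24 were called in 1 list, 1 in 2 lists and 1 in 3 lists. They covered 2.29% ± 0.455 of this length in WT and 1.39% ± 0.255 in Cgas KO (SD, n = 3). Most were low for their list. Their median height percentile, the share of peaks of the same list that were lower, with ties counted midway, was 15.2 ± 7.11 in WT and 28.3 ± 18.1 in Cgas KO (SD of the libraries' medians, n = 3). The peak ranked highest within its list in the sparse part was at percentile 80.2, in Cgas KO replicate 3. The one ranked lowest was at 0.19, in WT replicate 3. The longest stretch with no peak in any list, chr18:36978786-37071628, was 92.84 kb long. The next was chr18:37528719-37610354, with 81.64 kb.

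Distances of this length between regions of 4 or more lists were uncommon in number over the genome, where 635 of 10991 (5.78%) were at least as long and the median was 50.43 kb. Because such distances are long, they made up 55.5% of the total length between these regions. They were thus few, but together longer than all the shorter distances combined.

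The dense run, from 37873205 to the high end of the stretch, held 14, 15 and 14 peaks in WT replicates 1, 2 and 3. In Cgas KO replicates 1, 2 and 3 it held 17, 10 and 14, so that the Cgas KO values lay on both sides of the WT ones. Peaks covered 17.6% ± 1.12 of the run in WT and 16.3% ± 4.72 in Cgas KO (SD, n = 3). Their median height percentile was 77.4 ± 4.43 in WT and 70.8 ± 9.34 in Cgas KO (SD of the libraries' medians, n = 3). Regions of 4 or more lists occurred at 4.34 per 100 kb in the run, at 1.12 per 100 kb over the whole stretch with both flanks, and at 0.405 per 100 kb over the genome.

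Of the 50 regions, 5 were called in all 6 lists (10%, against 5.16% of regions in the genome), 5 in 5 lists, 4 in 4, 3 in 3, 2 in 2 and 31 in 1 list. The single-list regions came from WT libraries in 16 cases and from Cgas KO libraries in 15. The 14 regions of 4 or more lists are called shared regions here. They made up 28% of the regions at the protocadherin clusters and 11.6% of those in the genome.

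Shared regions held 70, 65.2 and 65.2% of the peaks here in WT replicates 1, 2 and 3, and 63.6, 73.3 and 56.5% in Cgas KO replicates 1, 2 and 3. The genotypes overlap in this share. The WT libraries called 13, 13 and 12 of the 14 shared regions, and each Cgas KO library called 11. Each WT library thus called more of them than each Cgas KO library. Over the genome, bins of 1250 kb with 10 or more shared regions had this order in 7.20% of 375 bins and the opposite order in 1.87%. The WT lists also called more of the shared regions of the whole genome, 87.5 to 88.1% against 82.6 to 85.2% in Cgas KO, so the same order held over the genome as a whole. The number of lists defines a shared region, so these calls are not independent of how the regions were chosen.

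**Figure D2:**
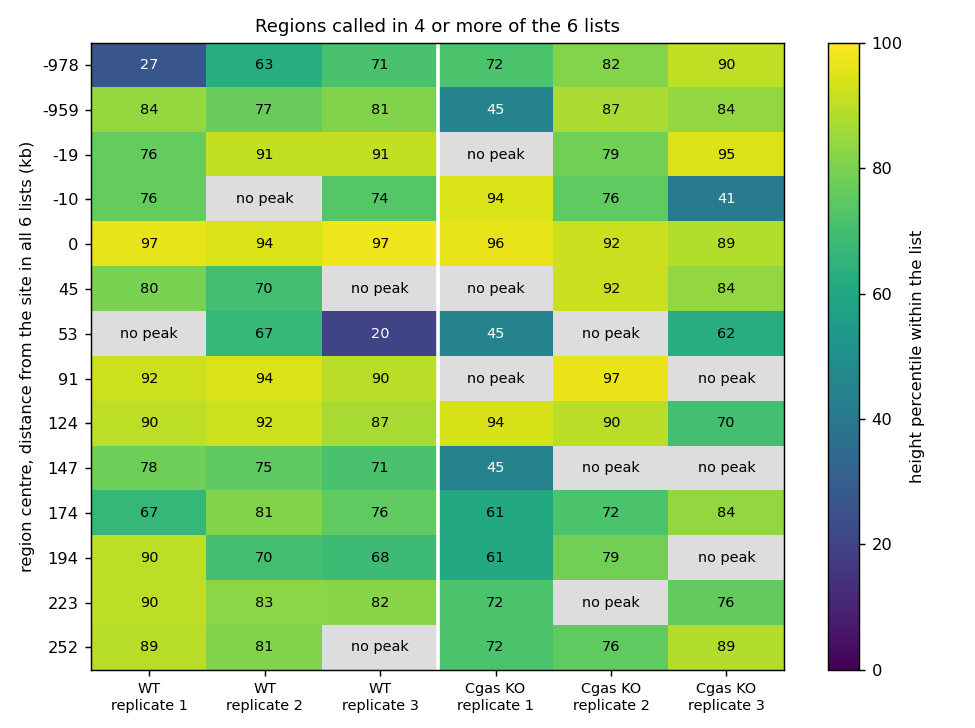
Height percentile within the list for the 14 regions called in 4 or more lists (rows, by distance of the region's centre in kb from the site whose summits coincided in all 6 lists) in the 6 libraries (columns); grey cells had no peak. The row at 0 is high in every library, between 88.6 and 97.3, and 12 of the rows lie in the dense run at the high end.

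Peaks in regions of 4 or more lists were the taller ones. The 31 peaks in regions of 1 list had a median percentile of 25.4, with a range of 7.07 to 86.5, and those of the whole genome had a median of 28.1. The 13 peaks in regions of 2 or 3 lists were lower, with a median of 15.3 and a range of 0.19 to 63.7, where the genome had a median of 44.5. The 42 peaks in regions of 4 or 5 lists had a median of 77.1, against 68.5 in the genome. The 40 peaks in regions of 6 lists had a median of 81.3, against 84.3 in the genome. Region membership and height were read from the same lists, and this is given as a description.

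The tallest site was chr18:37887704-37900107. Peak heights are given in steps, the unit of which every max signal in a list was a whole multiple. The median peak of a list was 11 to 14 steps high. In WT this region was 57, 38 and 62 steps high, and in Cgas KO 37, 27 and 18 steps. Every WT library was above every Cgas KO library on this scale, as at 2 of the 5 regions called in all 6 lists here. Over the genome, 34.4% of the 4896 regions called in all 6 lists had this order and 0.613% the opposite one.

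Within their lists, the same peaks stood at percentiles 96.7, 94.2 and 97.3 in WT and 96.5, 91.8 and 88.6 in Cgas KO. The percentiles of the genotypes overlap. The mean was 96.0 ± 1.64 in WT and 92.3 ± 3.94 in Cgas KO (SD, n = 3). On normal scores, the rank of a region's height within a library turned into a standard normal value, the difference between Cgas KO and WT was -0.46 (SE 0.28, limma adjusted p = 0.638) and did not pass. On total instead of max signal it was 0.11 (limma adjusted p = 0.969). It held the tallest peak here in all WT libraries, in WT replicate 2 level with that at chr18:37982132-37987680, and in Cgas KO replicate 1. Cgas KO replicate 2 had its tallest at chr18:37982132-37987680, with 41 steps, and Cgas KO replicate 3 at chr18:37873205-37883373, with 23 steps.

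This region was also where the summits coincided most widely. For the tallest peak of each list, the midpoints of the intervals of maximum signal fell between 37894523 and 37894608, within 85 bp, in all 6 lists. This region also chained lower peaks. Their summits were at 37888936 in WT replicate 3 (16 steps), 37888929 in Cgas KO replicate 3 (12 steps) and 37898268 in Cgas KO replicate 1 (15 steps). Of 72 groups of summit midpoints here, joined at up to 200 bp, that at 37894523 to 37894608 was the only one with all 6 lists, and 11 groups had 4 or more. Over the genome, 1843 of 133445 such groups had all 6 lists and 5974 had 4 or more. The peaks themselves were 1049 bp to 8836 bp wide over the protocadherin clusters.

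The 2 shared regions just below this site were called in 5 lists each. That at chr18:37873205-37883373 was 22, 31 and 34 steps high in WT and 19 and 23 steps in Cgas KO replicates 2 and 3, with no peak in Cgas KO replicate 1. Its percentiles were 76.2, 91.0 and 90.9 in WT and 78.9 and 94.6 in these Cgas KO libraries. The summits of the tallest peak of each of these 5 lists lay within 45 bp of one another. WT replicate 2 had a second peak in this region, of 16 steps, with its summit at 37880188. At chr18:37883391-37887644 the heights were 22 and 20 steps in WT replicates 1 and 3 and 31, 18 and 10 steps in Cgas KO, with no peak in WT replicate 2. The percentiles were 76.2 and 73.5 in these WT libraries and 94.4, 75.6 and 41.0 in Cgas KO. The 3 Cgas KO summits there lay within 106 bp of one another, from 37884642 to 37884748. The WT summits were close below them, at 37884367 and 37884245, and all 5 summits lay within 503 bp.

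Farther up, chr18:37935585-37942730 and chr18:37946330-37950902 were called in 4 lists each, 2 per genotype. The first was 24 and 17 steps high in WT replicates 1 and 2 and 27 and 16 steps in Cgas KO replicates 2 and 3. Its percentiles in these libraries were 79.7 and 70.0 in WT and 91.8 and 83.8 in Cgas KO. The second was lower, with 16 and 10 steps in WT replicates 2 and 3 and 13 and 12 steps in Cgas KO replicates 1 and 3. Its percentiles there were 66.8 and 20.4 in WT and 44.8 and 62.4 in Cgas KO. Neither region was missing from a genotype as a whole.

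The distances between the centres of neighbouring shared regions in the dense run ranged from 8.5 to 44.9 kb. A centre was the point midway between the lowest and the highest summit of the lists' tallest peaks in the region. They were 9.3, 10.1, 44.9, 8.5, 37.6, 32.8, 22.9, 27.5, 20, 28.9 and 29.2 kb from the low to the high end. The first regions thus stood 9.3 to 10.1 kb apart, and the last ones 20 to 29.2 kb. The widest interval, 44.9 kb, lay just above the tallest site, and the narrowest, 8.5 kb, followed it.

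The remaining regions of all 6 lists lay at both ends. At chr18:36914398-36918754 WT libraries had peaks of 11, 15 and 19 steps and Cgas KO libraries of 17, 20 and 19 steps. Their percentiles were 26.9, 62.8 and 71.1 in WT, with a mean of 53.6 ± 23.5, and 71.6, 81.5 and 90.4 in Cgas KO, with a mean of 81.2 ± 9.36 (SD, n = 3). Every Cgas KO library thus ranked this region higher than every WT library did. It was 1 of 5 here, while 9.40% of such regions over the genome had this order and 6.76% the opposite one, which 0 of the 5 had. On normal scores the difference was 1.04 (SE 0.42, limma adjusted p = 0.514), higher in 3 of 3 Cgas KO libraries, and did not pass.

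Its neighbour chr18:36933417-36937613 was 27, 20 and 24 steps high in WT and 13, 23 and 16 steps in Cgas KO. The mean percentile was 80.7 ± 3.38 in WT and 72.0 ± 23.6 in Cgas KO (SD, n = 3), the spread in Cgas KO coming from replicate 1, at 44.8. The difference on normal scores was -0.26 (SE 0.42, limma adjusted p = 0.867). Without Cgas KO replicate 1 it was 0.23 (limma adjusted p = 0.746).

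In the dense run, chr18:38008219-38023469 was 33, 33 and 29 steps high in WT and 30, 25 and 13 steps in Cgas KO. Its mean percentile was 89.7 ± 2.55 in WT and 84.6 ± 12.8 in Cgas KO (SD, n = 3), Cgas KO replicate 3 being low, at 70.1. This region chained several peaks. Among its summits were 2 groups of 5 lists each, 5.8 kb apart, at 38010677 to 38010919 and at 38016506 to 38016726. Farther up, WT replicate 3 had a summit of 16 steps at 38020100 and Cgas KO replicate 1 one of 30 steps at 38020143, and the latter also had one of 27 steps at 38016947. The heights given for the region are those of the tallest peak of each list, and the 30 steps of Cgas KO replicate 1 thus come from another site than those of the other libraries. On normal scores the difference was -0.22 (SE 0.35, limma adjusted p = 0.866), and without Cgas KO replicate 3 it was 0.15 (limma adjusted p = 0.854). At chr18:38064624-38073077 WT libraries had peaks of 18, 22 and 21 steps and Cgas KO libraries of 15, 17 and 16 steps, without overlap. Their percentiles of 66.7, 81.1 and 75.6 in WT and 60.6, 71.8 and 83.8 in Cgas KO overlapped, and the difference on normal scores was -0.096 (SE 0.30, limma adjusted p = 0.939). Its sign turned on total signal (1.38), on log2 values (0.051) and without WT replicate 2 (0.039) or Cgas KO replicate 1 (0.12).

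**Figure D3:**
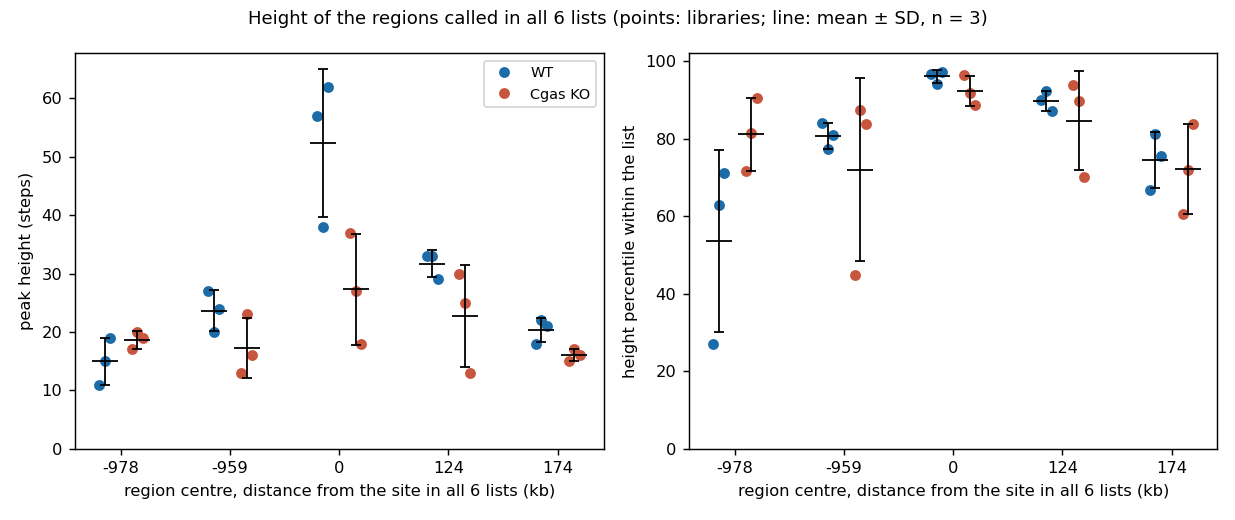
Height in steps (left) and height percentile within the list (right) of the 5 regions called in all 6 lists, by distance of the region's centre in kb from the site whose summits coincided; points are libraries and lines with bars are the mean ± SD of 3 libraries. The region at 0 is the tallest in steps in WT, and on percentiles the genotypes overlap at 4 of the 5 regions.

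Relative height was tested over the 4896 regions of all 6 lists in the genome, with limma on normal scores. None passed an adjusted p of 0.05 (0%), and 0 of the 5 at the protocadherin clusters did. At an unadjusted p under 0.05 there were 461 in the genome (9.42%) and 1 of these 5, chr18:36914398-36918754. With only 3 libraries per genotype the precision is limited, and a p that missed the threshold does not show equal heights.

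No region was called in all 3 libraries of 1 genotype and in 0 of the other. Over the genome 0.377% of regions were WT-only and 0.330% were Cgas KO-only in this sense, so that a count of 0 among 50 regions is near the background. Of the 17 regions here called in 3 or more lists, 2 were in all WT lists and in 1 Cgas KO list (8.03% of such regions over the genome had at most 1 Cgas KO list). None had the opposite pattern, against 5.79%. Counts of 2 and 0 among 17 regions are near these shares.

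The 2 regions called in all WT lists and in 1 Cgas KO list lay in the dense run. At chr18:37982132-37987680 peaks were 38, 38 and 32 steps high in WT and 41 steps in Cgas KO replicate 2. The single Cgas KO peak was thus taller than the WT ones, at percentile 97.1 against 89.6 to 94.2. At chr18:38039103-38043310 peaks were 23, 19 and 19 steps high in WT and 13 steps in Cgas KO replicate 1, whose percentile of 44.8 was below the 71.1 to 78.0 of WT.

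The last shared regions of the run were chr18:38085246-38090954, chr18:38111652-38120487 and chr18:38144702-38148331, each called in 5 lists. The first was 33, 17 and 18 steps high in WT and 15 and 19 steps in Cgas KO replicates 1 and 2. The second was 33, 23 and 25 steps high in WT and 17 and 14 steps in Cgas KO replicates 1 and 3. The third was 32 and 22 steps high in WT replicates 1 and 2 and 17, 18 and 18 steps in Cgas KO. In the same libraries, percentiles at the first were 89.9, 70.0 and 68.5 in WT and 60.6 and 78.9 in Cgas KO. At the second they were 89.9, 82.8 and 82.4 in WT and 71.6 and 75.9 in Cgas KO. At the third they were 89.1 and 81.1 in WT and 71.6, 75.6 and 88.6 in Cgas KO, which overlap. The highest value at each of the 3 came from WT replicate 1.

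Whether the genotypes differed over the clusters and flanks as a whole was tested on 4 measures per library. Peaks numbered 20, 23 and 23 in WT, 22 ± 1.73, and 22, 15 and 23 in Cgas KO, 20 ± 4.36 (SD, n = 3; two-sided exact permutation p = 0.7). Cgas KO replicate 2 had the fewest, and the genotypes overlapped. The difference between Cgas KO and WT was -2 peaks, and 0.5 peaks without that library. Over the genome, the counts of Cgas KO were all above those of WT in 8.59% of bins of this size and all below in 2.86%. These bins had a median of 10.7 peaks in WT and 11.3 in Cgas KO, with middle ranges of 6.33 to 17.7 and 6.67 to 19. The median bin held 1 region of all 6 lists, and 16.8% of bins held at least 5.

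Peaks covered 71, 78.6 and 77.6 kb of the stretch in WT and 78.3, 58.4 and 58.5 kb in Cgas KO. The difference was -10.7 kb (two-sided exact permutation p = 0.3, n = 3). Cgas KO replicate 1 lay among the WT libraries, and without it the difference was -17.3 kb, with both other Cgas KO libraries below every WT library (exact permutation p = 0.1, the smallest possible). All Cgas KO libraries were also below all WT libraries with lists of equal length (-15.7 kb) and with 100 kb left out at each side (-13.8 kb). Each had an exact permutation p = 0.1, the smallest possible. How many bins over the genome had this order in length covered was not computed. Lists of equal length were cut to 27128 peaks, from 27356, 28926 and 27128 in WT and 29412, 28052 and 31707 in Cgas KO. The cut was thus largest in Cgas KO replicate 3. Cgas KO replicates 2 and 3 covered less. Replicate 2 had 15 peaks, while replicate 3 had 23 that were narrower, with a median width of 2447 bp here and 2569 bp over its whole list, against 3219 to 3607 bp over the other lists.

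The median height percentile of peaks here was 72.3 ± 6.13 in WT and 69.9 ± 9.12 in Cgas KO (SD, n = 3; two-sided exact permutation p = 0.7). In each library it was above 50, the middle of the list, with 60.6 in Cgas KO replicate 1 as the lowest value. The difference of -2.41 points turned to 2.2 without that library and to 0.902 without WT replicate 1. The median distance between neighbouring peaks was 24.8 ± 2.46 kb in WT and 24.6 ± 7.04 kb in Cgas KO (SD, n = 3; two-sided exact permutation p = 0.9). Its difference of -0.155 kb turned to 3.82 kb without Cgas KO replicate 1 and to 1.15 kb without WT replicate 3. The genotypes overlapped in each of the 4 measures on the full lists and the whole stretch, and the Benjamini-Hochberg adjusted p over the 4 measures was 0.9 for each (exact permutation tests). An exact test of 3 against 3 libraries cannot go below p = 0.1.

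**Figure D4:**
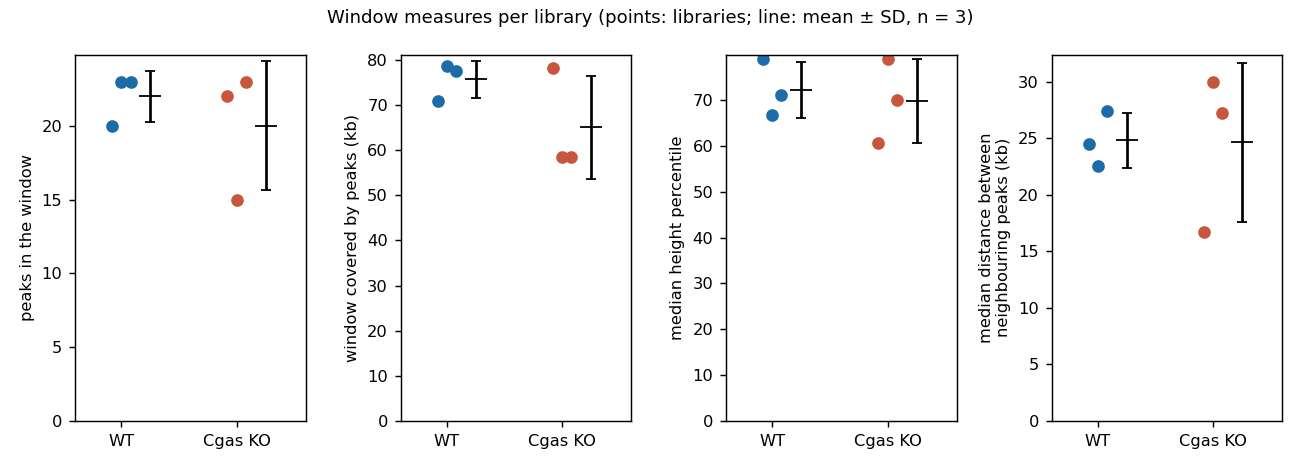
Number of peaks, length covered in kb, median height percentile and median distance between neighbouring peaks in kb for the protocadherin clusters with flanks in each library (points; lines with bars are the mean ± SD of 3 libraries). Genotypes overlap in all 4 panels, and Cgas KO replicate 2 has the fewest peaks, 15.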

How the data were processed

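One peak list per library was deposited for 6 CTCF CUT&RUN libraries, 3 WT and 3 Cgas KO, grouped by the labels. Bowtie2 and SEACR 1.3 were used, per the submitters' processing notes. For the threshold, any control and the scaling, the sources used here give nothing. The deposited values are signal, the authors' own total and maximum per peak, called per library and not on pooled libraries. The notes list mm10 and mm39, and the sequence names in the lists belong to mm39. Positions count from 1.

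No depth is known, and no counting intervals are given. In each list, the max signal of 100% of the peaks under 200 steps came to a whole number of steps, within 0.01 step. The meaning of a step is not stated, and its value differed between lists (0.1897 to 0.2124 in WT, 0.1169 to 0.1204 in Cgas KO), so heights were ranked within lists and compared between genotypes through ranks.

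Peaks were merged over the genome at an overlap of 1 bp. A region's height in a list was that of its tallest peak. Measures per library were compared with two-sided exact permutation tests, and relative height with limma 3.58.1 (R 4.3.3) over all regions of 6 lists, with Benjamini-Hochberg adjustment. Merging and limma were tested on simulated data. The outcomes are not given here, so these runs do not show how large a difference could have been found. The rest ran in Python 3.11.15 with scipy 1.17.1, pandas 2.3.3, numpy 2.4.6 and, for plots, matplotlib 3.10.9. The regions named were those of all 6 lists, those of 1 genotype only, those with the tallest peak of a library, and the longest empty stretches. The other shared regions, the sparse part and the dense run were named after their values were seen. The members and lists were chosen with earlier results of these data known. Alternatives were lists of equal length (27128 peaks), the 50% tallest peaks, a window narrowed by 100 kb per side, regions covered by 50% in a list, merging within 500 bp, total signal, midpoints within 200 bp, log2 values, each library left out in turn, and the replicate number as a block.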

Additional observations from a re-analysis of the deposited data

How the results depend on the processing

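The depth of the libraries is unknown, so whether a missing call reflects depth was not tested. Regions in all 6 lists numbered 2 at 50% coverage of the region, 1 by midpoints within 200 bp and 3 in the top 50% of each list. With a library left out, 5 to 6 regions were in all the remaining lists. WT-only regions numbered 1 at 50% coverage, 1 by midpoints and 0 to 1 with a library left out (1 without Cgas KO replicate 1 or 2). Cgas KO-only regions numbered 1 by midpoints and 0 with any library left out. By midpoints, 1843 of 133445 groups over the genome were in all 6 lists. For the other counts under these rules no share over the genome is given here, so they cannot be set against a background. Stricter overlap asks for more of each list by construction. Leaving out a library asks for 1 list fewer, which loosens these counts by construction, also the absence from the other genotype.

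With a library left out, the difference in peaks was -3.5 to 0.5, reversed without Cgas KO replicate 2 (0.5). The difference in length covered was -17.3 to -7.31 kb, the former without Cgas KO replicate 1 (exact permutation p = 0.1). With lists of equal length it was -15.7 kb and in the narrowed window -13.8 kb. Both were without overlap of the genotypes (exact permutation p = 0.1, the smallest possible). Equal length shortened the list of Cgas KO replicate 3 most, from 31707 to 27128 peaks. Lists of equal length gave -3.33 peaks, against -2 (exact permutation p = 0.2 and 0.7). The difference in median percentile was -6.58 on total signal, against -2.41 on max signal (exact permutation p = 0.6 and 0.7), and with a library left out -6.91 to 2.2, reversed without WT replicate 1 (0.902) or Cgas KO replicate 1 (2.2). The difference in distance was -2.86 to 3.82 kb, reversed without WT replicate 3 (1.15 kb) or Cgas KO replicate 1 (3.82 kb). Calls of relative height by limma at these regions stayed at 0 in all 10 alternatives.

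Some regions changed sign without passing in any alternative. With total signal the difference was 0.11 at chr18:37887704-37900107 and 1.38 at chr18:38064624-38073077 (limma adjusted p = 0.509). The latter was 0.051 on log2 values and -0.32 to 0.12 with a library left out, above 0 without Cgas KO replicate 1 (0.12) or WT replicate 2 (0.039). At chr18:36933417-36937613 leaving out a library gave -0.55 to 0.23, above 0 without Cgas KO replicate 1 (0.23). At chr18:38008219-38023469 it gave -0.49 to 0.15, above 0 without Cgas KO replicate 3 (0.15).

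The labels do not say whether equally numbered libraries were paired. Deviations of equally numbered libraries correlated at -0.0169 to -0.0129, and those of unequally numbered ones at -0.00261 to 0.0171. Such correlations cannot show whether libraries shared an animal or a day. With the number as a block there were 0 limma calls, and the differences stayed at -2 peaks, -10.7 kb, -2.41 percentile points and -0.155 kb, with exact sign-flip p from 0.5 to 1, where 0.25 is the smallest possible.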
